A study of Caenorhabditis briggsae with 6 samples.

Results

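In the larvae of C. briggsae, 45 of the 23169 genes counted were nearly silent in every wild-type library and present in every Cbr-ivph-3 mutant library. A gene entered this set when its level was under 0.5 CPM in each of the 3 wild-type libraries and at least 1.5 CPM in each of the 3 mutant libraries, where CPM is the count of read pairs for the gene per 1000000 counted pairs of that library. One gene, WBGene00039817, was left out by the rule. The members were thus chosen by their measured levels in both genotypes, and the difference between the genotypes is described here without a test. At the depth of these libraries, 0.5 CPM stood for 12.3 to 12.9 counts in wild type and 1.5 CPM for 34.2 to 46.3 counts in the mutant.

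RNA came from whole hermaphrodites that were kept at 20 °C and collected as L3 larvae, of either strain AF16 (wild type) or strain PS9217, which carries the single allele Cbr-ivph-3(sy5216), with 3 independent biological replicates of each. Larvae were synchronized by bleaching and staged on the first divisions of the vulval precursor cells, and the allele is a base substitution that puts a premature stop codon into the gene. Column sums were 24.6 to 25.8 M counts in wild type and 22.8 to 30.9 M in the mutant, and Cbr-ivph-3 (WBGene00026246) itself was at 33.3, 30.0 and 30.0 CPM in wild type and 21.4, 24.6 and 24.2 CPM in the mutant. Its log2 fold change was -0.72 in edgeR, and it was -0.41 and not called when libraries were scaled by their totals alone. As whole animals were used, fewer cells of a type and less RNA per cell cannot be told apart. Mutant replicate 1 stood apart from the other two: chi-square values per gene were 203 and 232 against them and 2.5 between replicates 2 and 3, and 8.0 to 32.3 between the wild-type libraries. A sum of 38 cuticle collagen genes, markers of the epidermis of these animals, was at 10300 to 11800 CPM in wild type. In mutant replicates 1, 2 and 3 it was at 19100, 8770 and 9060 CPM. These 38 are the ones that the study lists as changed in Cbr-spr-4 or Cbr-htz-1 mutants, where RefSeq has 140 collagen symbols. They did not all move one way. Of the 27 tested, edgeR called 4 higher and 1 lower, and 7 higher and 12 lower without mutant replicate 1.

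Cbr-ivph-3 belongs to a family of genes found in Caenorhabditis that encode a LIN-15B domain. In C. elegans lin-15B is one of a group of repressor genes that keep vulval and germline genes off in the wrong cells, and loss of such repressors is known to let genes be transcribed where they are normally silent. The study compared the genotypes to learn which transcripts depend on Cbr-ivph-3. A gene that goes from a trace to a clear level needs little sequencing depth to be seen, but its fold change is poorly bounded, because the wild-type side rests on a handful of counts.

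Wild-type larvae gave almost no reads from the members. Over the 3 wild-type libraries together a member had 0 to 31 counts, with a median of 15. In 2 members there were 0 counts, in 2 there were 1 to 3, in 13 there were 4 to 10, in 13 there were 11 to 20 and in 15 over 20. The mutant libraries gave 138 to 2427 counts per member, with a median of 306. The summed level of all members was 9.42, 8.42 and 8.91 CPM in wild-type replicates 1, 2 and 3 and 350.0, 241 and 242 CPM in mutant replicates 1, 2 and 3, so mutant replicate 1 was highest. Without WBGene00034024 the summed level of mutant replicate 1 was 269 CPM, still above the 239 CPM of each of the other two.

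Even in the mutant most members stayed at a low level. Their mean over the mutant libraries was 1.68 to 28.6 CPM (median 3.75 CPM), with 5 members above 10 CPM, 9 between 5 and 10 CPM and 31 below 5 CPM. Of the 12074 genes that reached 1.5 CPM in every mutant library, which had a median of 27.5 CPM, 7.02% lay below the median member and 51.1% below the highest one. The ratio of mutant to wild type, from counts pooled over the 3 libraries of each genotype and divided by their pooled totals, was 5.25 to 360.0 in the 43 members that had any wild-type count (median 24.4), and it was above 100 in 5 of them. The 95% exact intervals printed with such ratios cover counting error only.

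**Figure D1:**
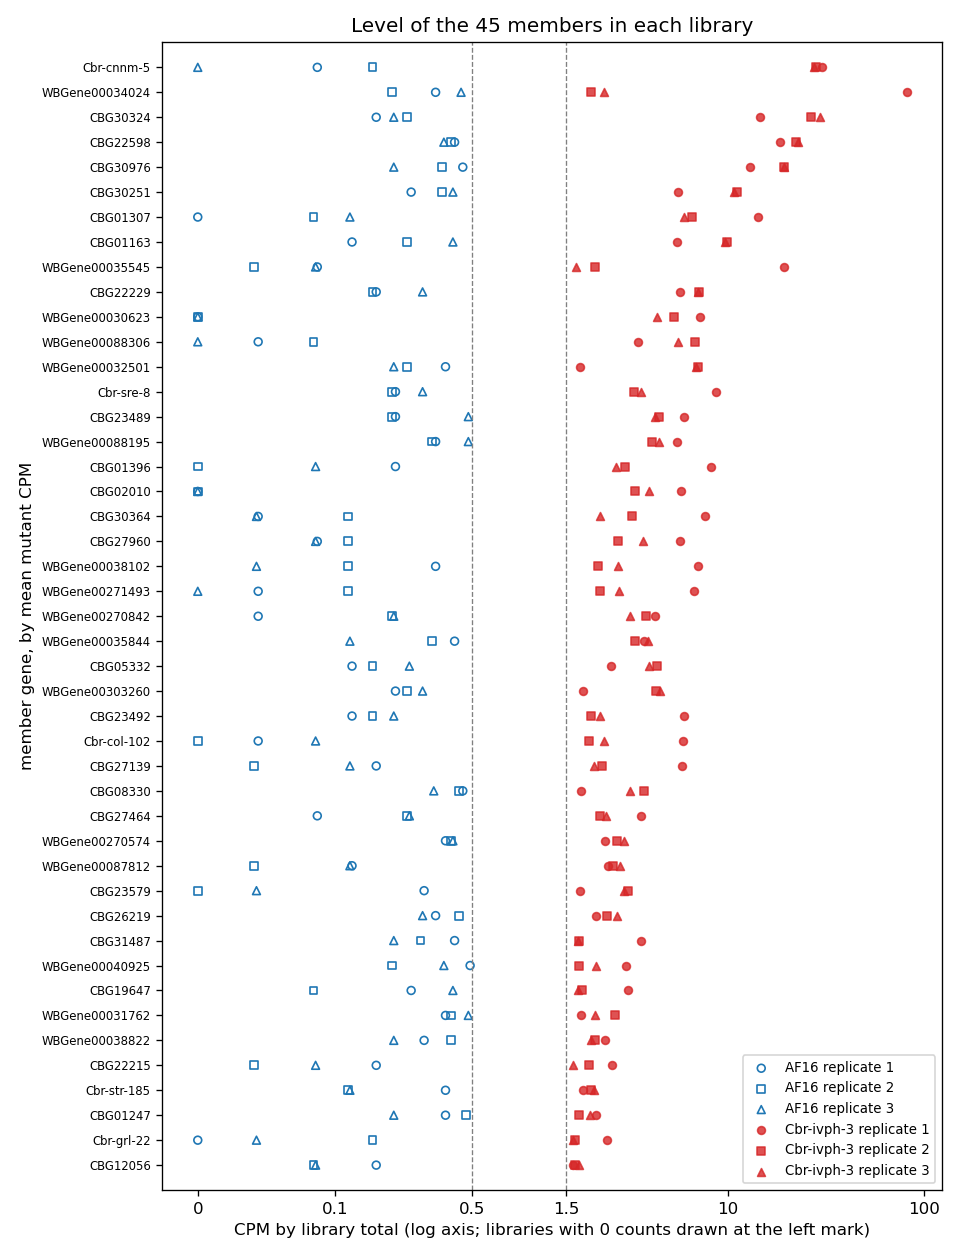
Level of each of the 45 members in the 6 libraries, in CPM by library total on a log axis, with open blue marks for AF16 and filled red marks for Cbr-ivph-3; the dashed lines are the limits of 0.5 and 1.5 CPM, and libraries with 0 counts are drawn at the left mark. Most red marks lie below 10 CPM, and in WBGene00034024 and WBGene00035545 the red circle of mutant replicate 1 stands far to the right of the other two.

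Most genes that were silent in wild type did not reach the mutant limit. Of 9331 genes under 0.5 CPM in each wild-type library, 7824 (83.8%) were also under 0.5 CPM in each mutant library. By the higher limit, 8890 (95.3%) reached 1.5 CPM in no mutant library, 359 in 1 of them, 37 in 2 of them and the 45 members (0.482%) in all 3. Of the 359 genes that did so in 1 library, 348 did so in mutant replicate 1, 7 in replicate 2 and 4 in replicate 3. Another 25 genes reached the limit in mutant replicates 2 and 3 but not in replicate 1. The rule applied without mutant replicate 1 therefore gave 70 genes, all 45 members among them.

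**Figure D2:**
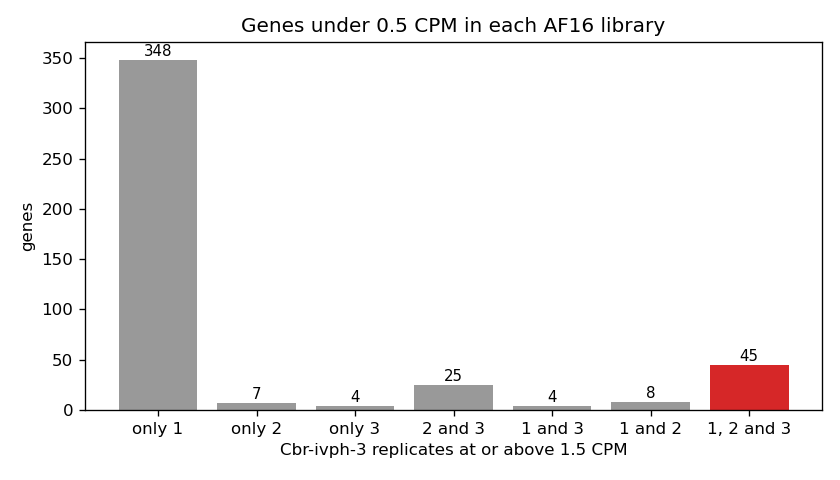
Number of genes under 0.5 CPM in each AF16 library, by the mutant replicates in which they reached 1.5 CPM (bars, from 0). The bar for mutant replicate 1 alone holds 348 genes and the bar for all 3 replicates, in red, holds the 45 members.

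Members at the edge of the set had neighbours just beyond it. The members with the highest single wild-type level were WBGene00040925 (0.487 CPM), WBGene00088195 (0.477 CPM) and WBGene00031762 (0.477 CPM), while CBG10309, CBG23491 and CBG00320, each at 0.505 CPM in 1 wild-type library, were outside; these 3 were the nearest of the genes with a mean over 4-fold higher in the mutant. On the mutant side, CBG12056, CBG22215 and Cbr-grl-22 were inside with a lowest mutant level of 1.62 CPM, and CBG10310 (1.48 CPM), Cbr-arf-1.1 (1.46 CPM) and CBG02393 (1.45 CPM) were outside. In the mutant WBGene00040925 was at 3.02, 1.75 and 2.14 CPM and WBGene00088195 at 5.52, 4.12 and 4.44 CPM. CBG22215 (WBGene00040823) had 4, 1 and 2 counts in wild type and was at 2.57, 1.97 and 1.62 CPM in the mutant. The limits thus cut through a continuous range of levels. With limits of 0.25 or 1 CPM for wild type the rule gave 21 or 141 genes, and with limits of 1 or 3 CPM for the mutant it gave 83 or 16.

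Of the 45 members, 29 could be paired with a locus name through the gene tables of the study's supplement and 5 of these with a symbol, and 16 are known here only by their identifier. The named ones fall into different families: a metal transporter family, chemoreceptor families, a hedgehog-related family and the cuticle collagens.

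Cbr-cnnm-5 (WBGene00030064, CBG08227) was the member with the highest mean mutant level. Its family, CNNM, is known from mammals and C. elegans for its part in magnesium transport across membranes. It had 2, 4 and 0 counts in wild-type replicates 1, 2 and 3, and 861, 639 and 849 counts in mutant replicates 1, 2 and 3. In the mutant this came to 30.3, 28 and 27.5 CPM (28.6 ± 1.48, SD, n = 3), so the 3 mutant libraries, replicate 1 included, lay close together. The pooled ratio was 360.0 (95% exact interval 165 to 982). RefSeq's CB4 table places it on chromosome I, and the gene that follows it there, CBG08228, was at 6.29 to 6.87 CPM in wild type and at 14.4, 2.28 and 2.82 CPM in the mutant and was not called.

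Chemoreceptor genes encode seven-transmembrane receptors that in C. elegans are mostly made in single pairs of sensory neurons, so in whole larvae their transcripts are scarce. Cbr-sre-8 (WBGene00027337) had 5, 5 and 7 counts in wild type and 248, 76 and 112 in the mutant, which is 8.72, 3.33 and 3.63 CPM. Its pooled ratio was 23.6 (95% exact interval 14.6 to 40.9), and mutant replicate 1 was 2.51 times the mean of the other two. Cbr-str-185 (WBGene00024880) was lower and more even, with 9, 3 and 3 counts in wild type and 1.83, 2.02 and 2.07 CPM in the mutant (ratio 9.93, 95% exact interval 5.85 to 18.2). A further member, CBG23489, has the symbol Cbr-srh-25 in RefSeq and is described with its neighbours. Chemoreceptor genes form large families of similar copies, and the study's list of settings names no option for read pairs with several matches in the genome. How such pairs were shared among the copies is thus not given in the sources used here. The counts of chemoreceptor genes are therefore less certain than those of single genes.

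Cbr-grl-22 (WBGene00027689) and Cbr-col-102 (WBGene00040090) encode secreted products. The grl genes are ground-like members of the hedgehog-related families of nematodes, and the col genes encode collagens of the cuticle, the coat that is renewed at each molt. Cbr-grl-22 had 0, 4 and 1 counts in wild type and was at 2.43, 1.67 and 1.62 CPM in the mutant (ratio 28.9, 95% exact interval 12.1 to 90.2). Cbr-col-102 had 1, 0 and 2 counts in wild type and was at 5.91, 1.97 and 2.33 CPM in the mutant (ratio 87.4, 95% exact interval 29.6 to 426). Mutant replicate 1 was thus the highest for both, as it was for the summed collagens, and the part of the state of that library in these levels was not tested.

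Other members of these families were read from the genes that the study lists as changed in a pair of other mutants, Cbr-spr-4 and Cbr-htz-1. They were thus not picked for how they moved here, but they do not stand for whole families. These lists hold more genes higher (821 and 323) than lower (396 and 171) in those mutants. For C-type lectins they hold 15 genes, where RefSeq has 65 symbols. Of the cuticle collagens in these lists, 27 were tested in edgeR, with 4 called higher, 1 called lower and 22 not called. Their median log2 fold change was 0.11, beside 0.06 over all 14241 tested genes. Without mutant replicate 1, 7 were higher and 12 lower. Of 8 tested ion and metal transporter genes other than Cbr-cnnm-5, 0 were higher, 2 were lower and 6 were not called in edgeR (1 higher and 4 lower without mutant replicate 1). The 1 gene with a chemoreceptor symbol in these lists was too low to be tested. The member CBG23489, which has no symbol in these lists, is not counted there. Beside these, 8 of 12 tested C-type lectin genes were higher and 1 lower (10 and 1 without mutant replicate 1). Of 17 tested antimicrobial and immune effector genes, 5 were higher and 2 lower (9 and 4). Only 5 of the 45 members have a symbol, and 0 of these 5 belong to either group. Among all 1860 identifiers with a symbol, 23 were C-type lectins and 36 were immune effectors, so nothing is read from that 0. Over all tested genes 1667 were higher and 1395 lower, and 4497 and 4147 without mutant replicate 1, where 14476 were tested.

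The members with no symbol included the next highest levels. CBG30324 (WBGene00271133) had 4, 6 and 5 counts in wild type and was at 14.5, 26.6 and 29.6 CPM in the mutant (95% exact interval of the ratio 71.7 to 212). CBG22598 (WBGene00041123) had 10, 10 and 9 counts and was at 18.4, 22.2 and 22.7 CPM (ratio 54.8, 95% exact interval 38 to 82.1). CBG30976 (WBGene00271616) had 11, 9 and 5 counts and was at 13, 19.3 and 19.3 CPM (ratio 51.7, 95% exact interval 34.9 to 80.2). In these 3 genes, unlike in Cbr-cnnm-5, mutant replicate 1 was the lowest of the mutant libraries.

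CBG30251 (WBGene00271119) and CBG01163 (WBGene00024436) showed the same order of the mutant libraries, with 5.56, 11.1 and 10.8 CPM and 5.52, 9.86 and 9.62 CPM in mutant replicates 1, 2 and 3. Their wild-type counts were 6, 9 and 10 and 3, 6 and 10. CBG22229 (WBGene00040833) was more even, with 4, 4 and 7 counts in wild type and 5.73, 7.14 and 7.03 CPM in the mutant. CBG01307 (WBGene00024566) had the opposite order. It had 0, 2 and 3 counts in wild type and was at 14.2, 6.57 and 5.99 CPM in the mutant (ratio 136, 95% exact interval 58.0 to 420).

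Both members without any wild-type count reached a few CPM in every mutant library. WBGene00030623 was at 7.24, 5.30 and 4.34 CPM in the mutant, and CBG02010 (WBGene00025157) was at 5.80, 3.37 and 3.95 CPM. Set against a floor of 3 counts over the 3 wild-type libraries, the first was at least 141-fold higher and CBG02010 at least 112-fold higher in the mutant. A count of 0 allows a level of up to 0.116 to 0.122 CPM in a single wild-type library, so the absence of transcript was not shown. WBGene00088306 came near to them with 1, 2 and 0 counts in wild type and 3.48, 6.79 and 5.54 CPM in the mutant (ratio 130, 95% exact interval 44.3 to 634).

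Some of the lower members had a high ratio in spite of the low level. CBG30364 (WBGene00271173) had 1, 3 and 1 counts in wild type and was at 7.63, 3.24 and 2.24 CPM in the mutant (ratio 66.2, 95% exact interval 28.1 to 205), and CBG27960 (WBGene00089374) had 2, 3 and 2 counts and was at 5.73, 2.76 and 3.69 CPM (ratio 44.7, 95% exact interval 21.4 to 112). Others came close to the limits on both sides. CBG01247 (WBGene00024511) had 9, 12 and 5 counts in wild type and was at 2.14, 1.75 and 1.98 CPM in the mutant (ratio 5.73, 95% exact interval 3.77 to 9.04), and WBGene00031762 had the lowest ratio of all members, 5.25 (95% exact interval 3.57 to 7.96), from 9, 10 and 12 counts in wild type and 1.79, 2.67 and 2.11 CPM in the mutant.

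The mutant libraries, in which the rule set only a lower limit, differed most in replicate 1. Replicate 1 was the highest of the 3 in 26 members, the lowest in 18 and in between in 1, that is, highest in 57.8% and lowest in 40.0% of them, beside 34.9% and 60.1% of the 12074 genes at or above 1.5 CPM in each mutant library. It was more than 2-fold above the mean of replicates 2 and 3 in 12 members (26.7%) and more than 2-fold below it in 2 (4.44%). Among those 12074 genes these shares were 7.13% and 11.8%. The median log2 ratio was 0.28 over the members, from -1.99 to 5.22, and -0.22 over those 12074 genes. Between replicates 3 and 2 no member differed by more than 2-fold, with log2 ratios of -0.54 to 0.42. As members are low and had to pass the limit in all 3 replicates, the limit itself bears on these shares.

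WBGene00034024 was the extreme case. It had 8, 5 and 11 counts in wild type and 2309, 46 and 72 counts in the mutant, which is 81.2, 2.02 and 2.33 CPM. Mutant replicate 1 alone was 37.3 times the mean of the other two, so the mean of 28.5 CPM describes none of the 3 libraries. WBGene00035545 was alike, with 2, 1 and 2 counts in wild type and 19.2, 2.10 and 1.68 CPM in the mutant, where replicate 1 was 10.2 times the mean of the other two. Both have no name here.

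The other 10 members that were more than 2-fold higher in mutant replicate 1 were CBG01307, Cbr-sre-8, CBG01396, CBG30364, WBGene00038102, WBGene00271493, CBG23492, Cbr-col-102, CBG27139 and CBG31487, with ratios of 2.07 to 2.88. Those more than 2-fold lower were WBGene00032501 (1.76, 7.06 and 6.87 CPM) and WBGene00303260 (1.83, 4.29 and 4.50 CPM). Genes of other tissues and stages moved with that library too. The 1 vitellogenin gene in the lists, of the yolk proteins made by the adult intestine, was at 4.11 to 5.85 CPM in wild type and at 57.2, 1.36 and 2.01 CPM in mutant replicates 1, 2 and 3. The 7 sperm genes summed to 24.7 to 27.1 CPM in wild type and to 86.8, 44.0 and 42.9 CPM in the mutant, the 15 oocyte and early embryo genes to 290 to 309 CPM and to 1120, 752 and 764 CPM, and the 15 meiosis genes to at most 210 CPM and to 617, 430 and 421 CPM. Their genes did not all move one way. Of the 15 oocyte and early embryo genes edgeR called 5 higher and 10 neither way (5 higher and 8 lower without mutant replicate 1), 6 of 15 meiosis genes were higher and 9 were not called (6 higher and 6 lower), 1 of 4 tested sperm genes was higher (3 higher and 0 lower), and the vitellogenin gene was not called (lower without that library). In wild type and in mutant replicates 2 and 3 the sperm list had 1 gene at 0, in mutant replicate 1 it had none, and in the other 3 lists none was at 0 in any library. Their part in the levels of the members was not tested.

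**Figure D3:**
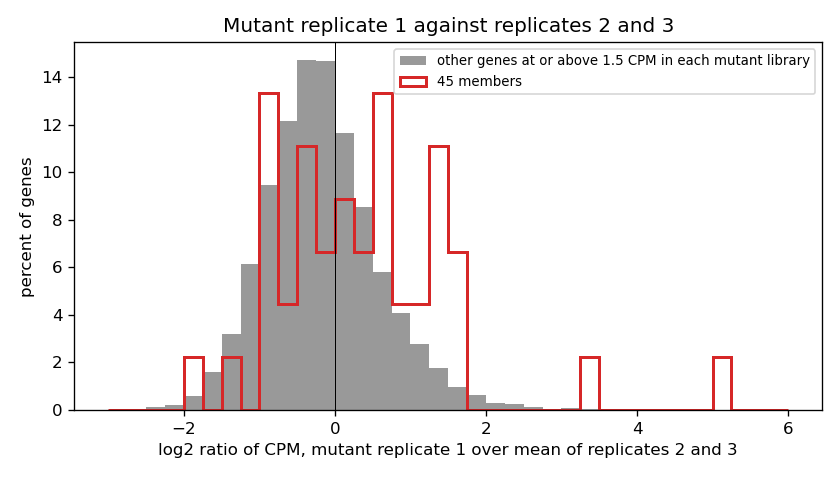
Distribution of the log2 ratio of CPM in mutant replicate 1 to the mean of replicates 2 and 3, in percent of genes per bin, for the 45 members (red line) and for the other genes at or above 1.5 CPM in each mutant library (grey). The members spread to both sides, with a median of 0.28 against -0.22 over all genes at that limit. Among the members WBGene00034024 lies farthest to the right at 5.22.

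A pair of members lay within a run of neighbouring genes that all had higher levels in the mutant. In RefSeq's CB4 table, CBG23492 and CBG23489 stand on chromosome V with 2 genes between them, and the run in chromosome order is Cbr-pals-38, CBG23492, CBG23491, CBG23490 and CBG23489. The pals genes are known from C. elegans, where several are switched on by intracellular pathogens as part of a common response. The member CBG23492 (WBGene00041842) had 3, 4 and 5 counts in wild type and was at 6.01, 2.02 and 2.24 CPM in the mutant (ratio 21.9, 95% exact interval 12.4 to 42.9). The member CBG23489 (WBGene00041839), Cbr-srh-25 in RefSeq, had 5, 5 and 12 counts in wild type and was at 6.01, 4.47 and 4.24 CPM in the mutant (ratio 16.9, 95% exact interval 11 to 27.3). Both were highest in mutant replicate 1.

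The other genes of the run differed in how silent they were in wild type. CBG23491 missed the wild-type limit narrowly, with 0.406, 0.505 and 0.477 CPM, and was at 10.5, 4.43 and 4.34 CPM in the mutant. CBG23490 was at 0.731, 0.582 and 0.756 CPM in wild type and at 13.3, 6.92 and 6.48 CPM in the mutant. Cbr-pals-38 was expressed in wild type, at 5.60, 5.51 and 5.89 CPM, and rose evenly to 29.1, 27.7 and 27.9 CPM. These 3 genes were called higher in edgeR's quasi-likelihood test. Their log2 fold changes were 3.51 (standard error 0.51) for CBG23491, 3.41 (standard error 0.42) for CBG23490 and 2.01 (standard error 0.14) for Cbr-pals-38. They could be named here because the study lists them as changed. They were also picked for their place beside members, with the values known, so nothing is read from their calls. The genes that flank the run could not be paired with an identifier. The other pals gene named in these tables, Cbr-pals-34, was too low to be tested, at 0.155 to 0.284 CPM in wild type and 0.0703 to 0.259 CPM in the mutant.

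**Figure D4:**
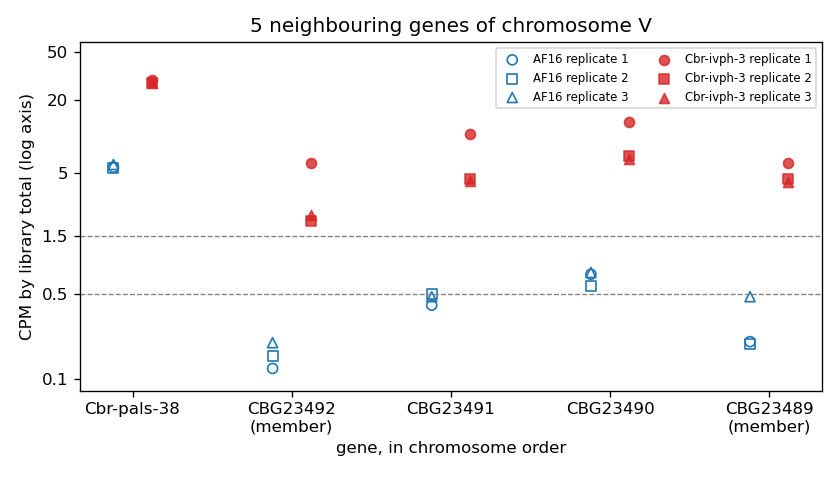
Level in CPM by library total (log axis) of 5 genes that follow each other on chromosome V, in chromosome order, in the AF16 libraries (open blue marks) and the Cbr-ivph-3 libraries (filled red marks); the dashed lines are the limits of 0.5 and 1.5 CPM. In each gene every red mark lies above every blue one, and Cbr-pals-38 alone is well above the limits in wild type.

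A second neighbourhood was found on chromosome IV. CBG22598 is followed there by CBG22597, which was at 0.893, 1.20 and 1.03 CPM in wild type and at 12.9, 27.1 and 25.5 CPM in the mutant. Its log2 fold change in edgeR was 4.04, with a standard error of 0.31. CBG22597 could be named here because the study lists it as changed, so nothing is read from its call. Both genes of this pair were lowest in mutant replicate 1, whereas both members of the run on chromosome V were highest in it. Members CBG22215 and CBG22229 on chromosome I had 12 genes between them, and 4 members of chromosome V, CBG01396, CBG01307, CBG01247 and CBG01163, followed each other with 94, 58 and 87 genes between them. Other neighbouring members on a chromosome had 166 to 2148 genes between them. Members that could not be placed are missing from these distances. Of the 46 genes that directly flank the 23 members placed on a chromosome, only 14 could be paired with an identifier, and 0 of these 14 were members. Whether the other flanking genes are members could not be seen. The 14 were paired nearly always because the study names them as changed. Their calls (11 higher, 1 lower and 2 not called) are thus no count of flanking genes at large.

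The flanking genes with an identifier were mostly expressed in wild type already. The genes after CBG01307 and CBG01163 are C-type lectins, a family of secreted sugar-binding proteins with roles in defence in C. elegans. Cbr-clec-218, after CBG01307, was at 36.1, 40.3 and 38.7 CPM in wild type and at 66.6, 144 and 139 CPM in the mutant, and Cbr-clec-85, after CBG01163, was at 154, 179 and 173 CPM and at 345, 334 and 342 CPM. CBG21263, after Cbr-col-102, was at 10.9, 11.3 and 10.5 CPM in wild type and at 50.4, 88.4 and 82.3 CPM in the mutant, so it was lowest in mutant replicate 1 where Cbr-col-102 was highest. CBG15962, before CBG27464, was called lower, at 139, 103 and 124 CPM in wild type and 90.1, 57.9 and 55.7 CPM in the mutant.

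The placed members were spread over all chromosomes. RefSeq's CB4 table held 24 of the 29 named members, all protein-coding, of which 8 (33.3%) were on chromosome V, 5 (20.8%) on IV, 4 (16.7%) each on I and X, 1 each on II and III and 1 on an unplaced sequence. Of all 21922 protein-coding genes in that table, 22.1% were on V, 15% on IV, 14.1% on I, 17.2% on X, 15.3% on II and 13.4% on III. The genes of the members spanned 264 to 3558 bp, with a median of 1312 bp beside 1746 bp over all protein-coding genes, and 33.3% of them were shorter than 1000 bp beside 28% of all. With so few members placed, these differences were not tested.

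For 4 members the table shows an overlap with another gene. CBG01396 (WBGene00024643) had 5, 0 and 2 counts in wild type and was at 8.16, 2.98 and 2.69 CPM in the mutant, while the overlapping CBG01387 was at 21.5, 21.7 and 19.0 CPM in wild type and at 210, 148 and 145 CPM in the mutant. CBG12056 (WBGene00033065), the member with the lowest mean mutant level (1.62, 1.67 and 1.75 CPM), overlaps CBG12055, which was at 110, 126 and 140 CPM in wild type and at 272, 241 and 250 CPM in the mutant. CBG05332 (WBGene00027798) had 3, 4 and 6 counts in wild type and was at 2.53, 4.38 and 3.95 CPM in the mutant, and CBG26219 (WBGene00087633) had 8, 11 and 7 counts and was at 2.14, 2.41 and 2.72 CPM. Both overlap genes with no identifier here. Overlap was taken from whole gene spans, introns included, and whether exons overlap was not checked. The library kit does not mark strand, while counting used the reverse-stranded setting. The study's list of settings leaves blank the entry for read pairs that match several genes at once. Read pairs from a shared stretch cannot be assigned by strand, so the levels of these 4 members are uncertain.

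In all, 4 members appear among the genes that the study lists for a pair of other mutants. Cbr-spr-4 encodes a zinc finger protein and Cbr-htz-1 a variant histone, both with roles in repression known from C. elegans. CBG23489, CBG23492 and CBG19647 (6.67% of the members) are among 821 genes of the count table listed as higher in Cbr-spr-4(gu163), which are 3.54% of the table and include 1.31% of the genes silent in wild type. The last of these had 6, 2 and 10 counts in wild type and was at 3.09, 1.8 and 1.72 CPM in the mutant (ratio 9.30, 95% exact interval 5.72 to 16). Cbr-cnnm-5 (2.22%) is among 323 genes listed as higher in Cbr-htz-1(gu167), which are 1.39% of the table and include 0.354% of the genes silent in wild type. Of the 396 and 171 genes listed as lower in these mutants, 0 are members. All 5 genes of the run on chromosome V are in the Cbr-spr-4 list and 3 of them, the ones that are not members, are also in the Cbr-htz-1 list. Those mutants were measured in an earlier experiment, and no test of overlap was made.

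In edgeR's quasi-likelihood test all 45 members passed the filter on low counts and 44 were called higher at an adjusted p under 0.05, where 11.7% of 14241 tested genes were called higher. The lowest mutant level exceeded the highest wild-type level in all 45, as it did in 29.7% of the 20256 genes with any count. As the rule used the same contrast, nothing can be read from these counts. The one without a call was WBGene00034024. The members' log2 fold changes in that fit were 2.08 to 10.09 (median 4.35), which are model values that depend on a prior count where wild type is near 0. With CPM from library totals, as in the rule, the median log2 fold change of all tested genes was 0.37, against 0.06 with the scaling of edgeR. Library totals thus put levels in the mutant higher than that scaling does, by about that difference. Which scaling is the better one was not tested. With library totals edgeR called 3280 genes higher and 646 lower. With edgeR's TMM scaling in the rule 34 genes passed, all of them members.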

How the data were processed

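The authors aligned paired-end reads with RNA STAR to the WS279 genome and assigned read pairs to genes with featureCounts (reverse-stranded setting), and deposited raw counts for 23169 genes; tool versions are not given in the sources used here. The kit in the labels does not mark strand. The combined table held the same counts as the 6 single files. Members were chosen by CPM from column sums; members and gene lists were chosen with earlier results of these data known. Names come from the supplementary gene tables, where 3900 identifiers have a locus; the copies read here are shortened for Cbr-ivph-3, so lists (collagens, transporters, chemoreceptors, C-type lectins, immune effectors, sperm, oocyte, meiosis, vitellogenin) used only the genes listed for Cbr-spr-4 and for Cbr-htz-1. RefSeq's CB4 table gave gene order, chromosome and length. Sequences were not analysed here.

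All genes were tested with edgeR 4.0.16 in R 4.3.3 (TMM scaling, filterByExpr, glmQLFit, glmQLFTest, Benjamini-Hochberg, adjusted p under 0.05), with genotype as the only term. The code was tested on simulated data. Alternatives were other scalings, no filter, DESeq2 1.42.0, a replicate block, other limits and each library left out. Intervals are exact binomial (95%) from scipy 1.17.1. Members with values in every library in the text are those with a symbol, the 12 highest, those at 0 in wild type, the nearest inside each limit, and those next to or overlapping another gene. Other members and flanking genes given with values were chosen after those values were seen.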

Additional observations from a re-analysis of the deposited data

How the results depend on the processing

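The set is defined by its limits, and its size moved with them: 21 genes with a wild-type limit of 0.25 CPM, 141 with 1 CPM, 83 with a mutant limit of 1 CPM and 16 with 3 CPM. With TMM-scaled library sizes or DESeq2's size factors it held 34 or 32 genes, all of them members. With each library left out of the rule in turn it held 48 to 70 genes, with the 70 coming without mutant replicate 1. The members' median log2 difference between mutant replicate 1 and the other two was 0.28, and 0.48 and 0.53 under those scalings; without WBGene00034024, a choice made after seeing the data, it was 0.24.

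Over all genes edgeR called 3062. The count was 2336 with a replicate block, and 1240 to 8644 with each library left out, where 8644 came without mutant replicate 1. The count fell to 1240, 1432 and 1279 without wild-type replicate 1, 2 and 3 and to 1637 and 1618 without mutant replicate 2 and 3. Of the members, 37 to 45 were called with each library left out, 45 with a replicate block and 43 of 43 with an adjusted p in DESeq2. Same-numbered replicates had correlations of deviations of 0.152, 0.174 and -0.067. With 3 libraries per genotype and mutant replicate 1 apart from the others, these values cannot show whether same-numbered replicates shared a preparation. Cbr-pals-38, CBG23491 and CBG23490 were called in every fit that tested them, but they were picked with the values known and nothing is read from this.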

Other observations

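By CPM from library totals the opposite pattern was rarer. With the same limits exchanged, 8 genes were under 0.5 CPM in each mutant library and at or above 1.5 CPM in each wild-type library, out of 7946 genes silent in the mutant (0.101%, beside 0.482% for the members). The highest were CBG10424 (WBGene00031813), with 16.1, 21.9 and 17.1 CPM in wild type and 6, 0 and 2 counts in the mutant, and CBG10423 (WBGene00031812), with 12.4, 17.6 and 15.1 CPM in wild type and 0, 0 and 2 counts in the mutant. Cbr-lips-6.2, of a family of lipase-related genes, was at 4.02, 3.92 and 4.46 CPM in wild type and had 0, 1 and 2 counts in the mutant. Library totals put levels in the mutant higher than TMM scaling does, which bears on both counts. With them edgeR called 3280 genes higher and 646 lower, and with TMM scaling 1667 and 1395. Under TMM scaling the rule kept 34 members, and the opposite pattern was not counted again. No test compares the 2 patterns, since the limits chose both.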
